A study of Mus musculus with 24 samples.

Results

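The expression of 10 receptor genes through which blood-forming cells read cytokines was followed in mouse bone marrow of mice labelled wild type or knockout for BAP1, a deubiquitinase of the nucleus with histone H2A among its substrates. The genes were Kit, Flt3, Csf1r, Csf2ra, Csf2rb, Csf3r, Il3ra, Il6ra, Il6st and Il1r1. All 10 are reported whatever their values, but the list was chosen with earlier results of these data known. The arrays carried 12 named probes for them, out of 22439 probes and 17741 named genes in all. Each gene was read from its brightest probe by mean over the 24 arrays, and only Csf2rb and Il6ra had a second probe.

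All mice had the C57BL/6 background, and the protocol in the labels describes tamoxifen injection to delete BAP1 throughout the body without setting the wild-type mice apart. The labels divide the 8 mice into 4 groups of 2. LSK cells, the stem-cell-enriched fraction that lacks lineage markers and carries Sca1 and Kit, came from wild-type (WT) mice 1 and 3 and knockout (KO) mice 2 and 4. Myeloid progenitors, which lack lineage markers and Sca1 but carry Kit, came from WT mice 5 and 6 and KO mice 7 and 8. Each mouse was measured on 3 arrays, and no mouse contributed to both populations. The sources used here do not give the engineered allele, what drives the recombinase, the time after injection or the age of the mice.

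Cytokine receptors fall into structural classes that signal differently. Kit, Flt3 and Csf1r are receptor tyrosine kinases, which dimerize on their ligands and phosphorylate themselves. The receptors for interleukin-3 (IL-3), GM-CSF, G-CSF and interleukin-6 (IL-6) have no kinase of their own and work through JAK kinases and STAT transcription factors, whose targets include the SOCS genes that shut the signal off. The IL-3 and GM-CSF receptors each pair a private alpha chain, Il3ra or Csf2ra, with the shared beta chain Csf2rb. Along the path from stem cell to myeloid cell, Flt3 marks multipotent and lymphoid-primed progenitors, Csf1r the monocyte lineage and Csf3r the granulocyte lineage.

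Values are normalized log2 intensities, on which a difference of 1 is a doubling, and they ran from 5.66 to 15.93 over all arrays. Values of a group are given in the order of the mouse numbers above, each the mean of 3 arrays. The SD over the 3 arrays of a mouse had a median of 0.15 for the receptor genes and reached 0.35. Differences are given ± SE from a limma fit of the 8 mouse means, with Benjamini-Hochberg adjustment over all probes and a threshold of 0.05 on the adjusted p. Intensities of different probes cannot be set against each other, so each gene is compared only with itself. Because the samples are bulk RNA of a sorted gate, fewer cells of a type and less RNA per cell cannot be told apart.

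Surface marker genes and genes of neighbouring cell types bore on the population labels. In WT mice, 6 of 8 long-term stem cell markers and Cd34 were higher in LSK cells, while the Fc receptor genes Fcgr3 and Fcgr2b were higher in myeloid progenitors. Of 7 measured mature neutrophil markers, 3 were also higher in WT LSK cells (Ltf, Camp and S100a9) and 0 were lower. That neutrophil count fell when mouse 1 or mouse 6 was left out. Sca1 itself (Ly6a) had no named probe. Bap1 was not lower in mice labelled KO: its probe read 11.55 and 11.45 in WT against 11.96 and 11.84 in KO LSK cells, and 11.54 and 11.59 against 11.67 and 11.85 in myeloid progenitors. The sources used here do not place this probe relative to the deleted part, so it does not check the genotype labels. The Y-linked gene Kdm5d was at 7.88 in mouse 1 and 8.15 in mouse 5, both WT, and between 5.93 and 6.02 in the other mice. No KO mouse had this signal, so sex and genotype were partly confounded in both populations. The genotype differences below cannot be fully told apart from a difference of sex. Without mice 1 and 5, fewer of the stem cell markers and fewer of Cd34, Fcgr3 and Fcgr2b passed between the WT populations. Calls of the 10 receptor genes that were lost when both mice were left out are given with and without them.

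Across genotypes, 2 of the 10 receptor genes passed the threshold in LSK cells, Csf2rb and Il3ra, both higher in KO. Over all genes tested, 4.64% passed in LSK cells, 1.74% as higher and 2.90% as lower. The median change of the 10 receptors was 0.09, against 0.02 over all genes. In myeloid progenitors 0 of the 10 passed with limma. There 2.64% of all genes passed, 0.908% as higher and 1.74% as lower, so a count of 0 of 10 lay close to the background. In the same fit 4 of the 10 (Csf1r, Csf2ra, Csf2rb and Il6ra) had an unadjusted p under 0.05. The share of all genes at that unadjusted level was not computed, so such counts, here and below, are not read against a background. Averaged over both populations, Csf2rb rose and Csf1r fell, beside 7.95% of all genes (3.09% higher and 4.85% lower). The difference between the genotype changes in LSK cells and in myeloid progenitors passed for 0 of the 10 receptors (1 at an unadjusted p under 0.05, Il3ra) and for 0.0620% of all genes.

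**Figure D1:**
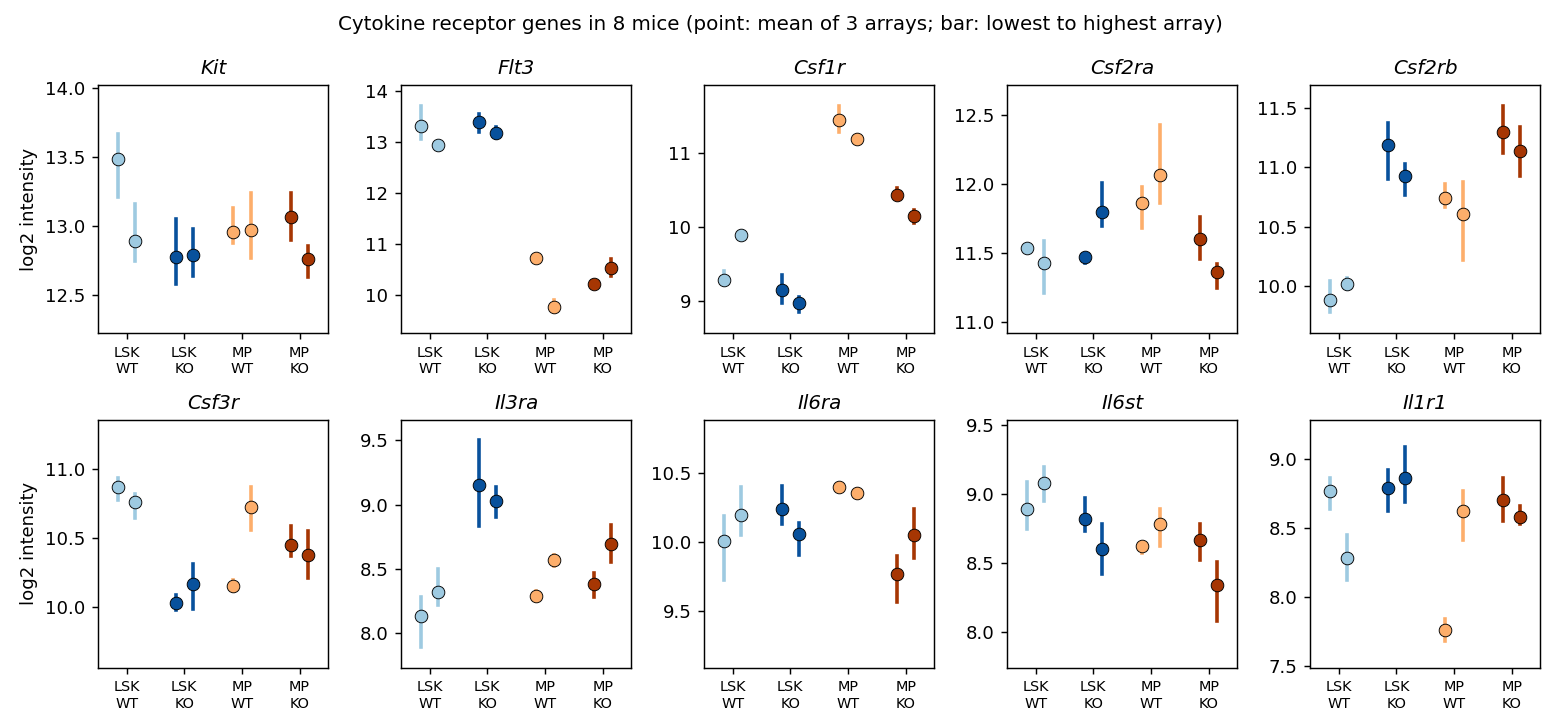
Log2 intensity of each receptor gene in the 4 groups (LSK cells and myeloid progenitors, MP, from WT and KO mice). Points are mouse means of 3 arrays, vertical bars run from the lowest to the highest array, and each panel has its own axis. Flt3 separates the populations in every mouse, Csf1r is lower in KO than in WT myeloid progenitors, and Csf2rb is higher in both KO mice than in both WT mice of each population.

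The shared beta chain Csf2rb, the signalling subunit of the IL-3 and GM-CSF receptors, had the largest genotype change of the receptor genes in LSK cells. It read 9.88 and 10.02 in WT LSK mice and 11.19 and 10.93 in KO LSK mice. The groups did not overlap, and the change of 1.11 ± 0.20, or 2.16-fold, passed (adjusted p = 0.0122). In WT myeloid progenitors it read 10.74 and 10.61 and in KO ones 11.30 and 11.14. These groups did not overlap either, but the change of 0.55 ± 0.20 did not pass (adjusted p = 0.295, interval 0.10 to 0.99). Averaged over both populations Csf2rb rose by 0.83 ± 0.14 (adjusted p = 0.00513).

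The second Csf2rb probe also read higher in every KO mouse than in every WT mouse of its population. It gave 10.07 and 10.51 against 10.98 and 10.81 in LSK cells (0.61 ± 0.22, adjusted p = 0.175) and 10.24 and 10.12 against 11.02 and 10.97 in myeloid progenitors (0.82 ± 0.22, adjusted p = 0.0916). Its average change over both populations, 0.71 ± 0.15, passed (adjusted p = 0.0159). The larger of the LSK and progenitor changes was thus in LSK cells by the brighter probe and in progenitors by the other. The difference between these changes was 0.57 (95% interval -0.07 to 1.20) by the brighter probe and -0.21 (interval -0.88 to 0.46) by the other. Mice carry a closely related paralog, Csf2rb2, the beta chain dedicated to IL-3, and probe cross-hybridization between them is uncertain here. The Csf2rb2 probe read 9.12 and 9.56 in WT LSK cells, KO mouse 4 lay between them at 9.46, and the change of 0.39 did not pass (adjusted p = 0.607).

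The call of Csf2rb in LSK cells depended on single mice. Without WT mouse 1 the change was 1.04 (adjusted p = 0.0923), without KO mouse 2 it was 0.98 (adjusted p = 0.0565), and without mice 1 and 5 together 1.04 (adjusted p = 0.118). The average over both populations passed in all 17 alternative fits, at 0.76 to 0.89 and adjusted p up to 0.0494.

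Il3ra, the alpha chain that binds IL-3, rose in the same cells. It read 8.13 and 8.32 in WT and 9.15 and 9.03 in KO LSK mice, a gap well above the spread within each pair. The change was 0.87 ± 0.21, or 1.82-fold (adjusted p = 0.0449). In myeloid progenitors the values were 8.29 and 8.57 in WT and 8.38 and 8.69 in KO mice. These overlapped, and the change was 0.11 ± 0.21 (adjusted p = 0.961). The difference between the LSK and progenitor changes, 0.76 (95% interval 0.10 to 1.41), did not pass after adjustment over all probes (adjusted p = 0.717). The call in LSK cells lay at the threshold and was lost in 11 of 18 alternative fits, among them every fit that left out 1 mouse (0.77 to 0.96, adjusted p from 0.0528 to 0.265). Without mice 1 and 5 together the change was 0.77 (adjusted p = 0.273).

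Csf2ra, the alpha chain that binds GM-CSF and joins the same beta chain, did not pass in any comparison of the fit on mouse means. It read 11.54 and 11.43 in WT against 11.47 and 11.80 in KO LSK cells (0.15 ± 0.20, adjusted p = 0.805). WT myeloid progenitors read 11.86 and 12.07 and KO ones 11.60 and 11.36, both lower than both WT mice (-0.49 ± 0.20, adjusted p = 0.399). Of the 3 chains, Csf2rb and Il3ra thus passed as higher in KO LSK cells, while the interval of Csf2ra ran from -0.30 to 0.60.

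The stretches upstream of the alpha chain genes are shown because these chains share the partner Csf2rb, which rose. They are the 250 bases before the RefSeq transcription start on GRCm38.p6, written 5′ to 3′ on the gene's strand, Il3ra from chr14:14346245-14346494 (plus strand) and Csf2ra from chr19:61228419-61228668 (minus strand). Capitals mark matches to core motifs of blood cell transcription factors.
Il3ra: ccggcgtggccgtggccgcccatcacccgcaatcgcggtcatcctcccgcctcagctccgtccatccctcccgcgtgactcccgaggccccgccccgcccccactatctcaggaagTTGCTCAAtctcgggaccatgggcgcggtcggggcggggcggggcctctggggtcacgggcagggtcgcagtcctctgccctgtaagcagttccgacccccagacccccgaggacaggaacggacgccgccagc
Csf2ra: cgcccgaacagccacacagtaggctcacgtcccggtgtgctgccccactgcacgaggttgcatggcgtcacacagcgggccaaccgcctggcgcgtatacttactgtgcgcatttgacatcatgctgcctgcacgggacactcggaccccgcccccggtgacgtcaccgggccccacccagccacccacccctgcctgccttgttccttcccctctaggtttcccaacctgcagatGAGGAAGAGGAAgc
The motifs were searched on both strands. They were GAGGAA for PU.1, AGATAA for the GATA factors, TGTGGT for the RUNX factors, TTCNNNGAA for the STAT factors and TTGCNNAA for the C/EBP factors. The Il3ra stretch held 1 match, the C/EBP core TTGCTCAA with its first base at position -134, a motif that 9.56% of 32851 RefSeq promoter stretches of this length held. The Csf2ra stretch held 2 PU.1 cores side by side, without overlap, at positions -14 and -8, and 23.3% of all stretches held that core. RefSeq entries of 8 of the 10 receptor genes were searched. Csf1r and Csf2rb were not searched and are named only. The PU.1 core also stood upstream of Kit, Csf3r and Il6ra, the GATA core (9.99% of all stretches) upstream of Il6ra, and the C/EBP core upstream of 1 of 2 Il1r1 starts. None of the searched receptor stretches held the RUNX core (14% of all) or the STAT core (7.02%). The C+G content was 72.4% upstream of Il3ra and 64.8% upstream of Csf2ra, with a median of 52.4% over all stretches. These matches describe letters in the window and were not tested against expression.

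Markers of granulocyte-monocyte progenitors moved in the LSK gate alongside Csf2rb and Il3ra. In KO LSK cells 3 of 7 measured markers rose: Elane and Ctsg, which encode granule proteases, and Cebpe, a transcription factor of granule formation. The mean log2 level of the 7 ranged over 11.16 to 11.86 in WT and 12.10 to 12.52 in KO LSK mice, and over 13.46 to 13.49 in WT and 13.30 to 13.45 in KO myeloid progenitors, with no marker below the arrays' 25th percentile. The count of 3 was 0 without mouse 1, without mouse 4 and without mice 1 and 5 together, and 1 without mouse 5, 6, 7 or 8. Irf8, a factor of monocyte fate in the same list, moved the other way but did not pass (-0.89 ± 0.24, adjusted p = 0.0698), and averaged over both populations it fell by 0.96 ± 0.17 (adjusted p = 0.00595). The part of these markers in the receptor changes was not tested.

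**Figure D2:**
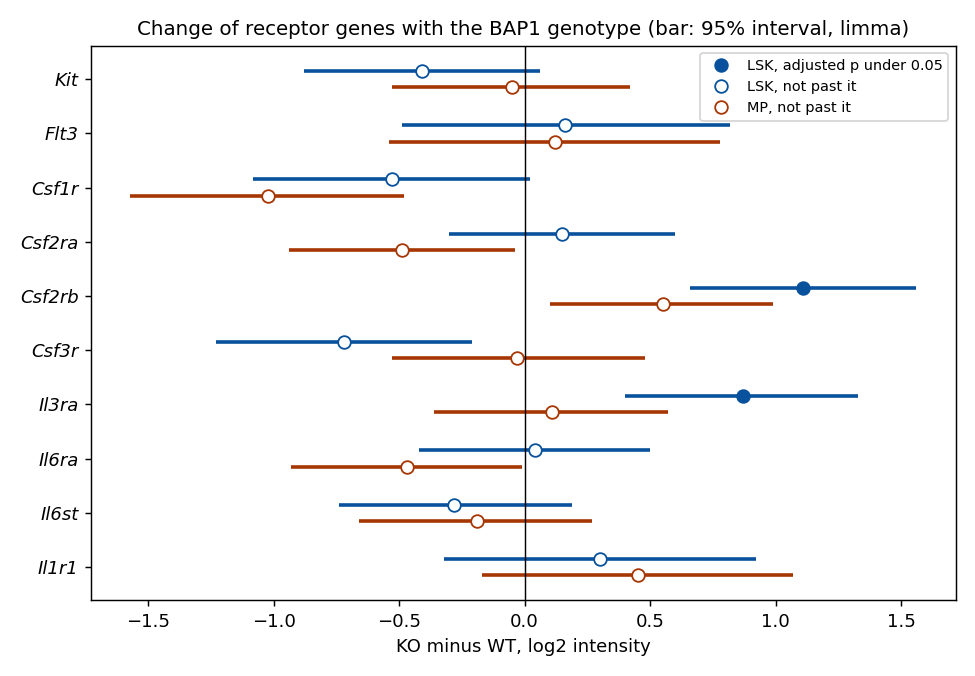
Change of each receptor gene from WT to KO in LSK cells and in myeloid progenitors (MP), as a log2 difference of group means with its 95% interval from limma (2 mice per group). Filled points pass the adjusted threshold of 0.05: Csf2rb (1.11) and Il3ra (0.87) in LSK cells and no gene in myeloid progenitors, where Csf1r lies lowest at -1.02.

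Among the tyrosine kinase receptors, Csf1r, the receptor for CSF-1 and interleukin-34 on the monocyte lineage, was the gene that passed a genotype comparison, the average over both populations. It read 11.45 and 11.19 in WT against 10.44 and 10.15 in KO myeloid progenitors. The KO mice lay below the WT mice without overlap, a difference of -1.02 ± 0.25 or 2.03-fold, which just missed the threshold (adjusted p = 0.0634). In LSK cells it read 9.29 and 9.89 in WT against 9.15 and 8.97 in KO mice, again without overlap (-0.53 ± 0.25, adjusted p = 0.33). The LSK value was -0.83 without mouse 1 and -0.24 without mouse 3. Averaged over both populations Csf1r fell by 0.78 ± 0.18 (adjusted p = 0.021). The difference between the LSK and progenitor changes was 0.49 (interval -0.28 to 1.27).

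The myeloid progenitor value of Csf1r passed in 5 of 18 alternative fits, among them with the compared groups alone (adjusted p = 0.0384) and with dim probes left out (0.046 above the 25th percentile and 0.0249 above the 50th). The average lost its call without mouse 3 (-0.63, adjusted p = 0.0796), mouse 5 (-0.71, adjusted p = 0.0748), mouse 8 (-0.71, adjusted p = 0.107) or mice 1 and 5 together (-0.86, adjusted p = 0.0517).

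Monocyte and macrophage markers moved in the progenitor gate together with Csf1r. In KO myeloid progenitors 3 of 7 measured markers fell: Adgre1, the F4/80 antigen, Mpeg1, a pore-forming protein of macrophages, and F13a1, a coagulation factor subunit made by monocytes. The mean log2 level of the 7 markers was 10.68 to 10.85 in WT and 10.10 to 10.39 in KO myeloid progenitors. In LSK cells it was 9.32 to 9.50 in WT and 9.52 to 9.53 in KO mice, where Cd68 rose and Mpeg1 fell. None of the 7 lay below the arrays' 25th percentile in any group. The count of 3 in progenitors was 0 without mouse 5 or 8 and without mice 1 and 5 together, and 1 without mouse 6. Surface marker genes that the stated gate does not use also differed in the same cells. The mean log2 level of Cd34, Fcgr3 and Fcgr2b was 12.29 to 12.35 in WT and 11.19 to 11.63 in KO progenitors, with a median change of -0.81. Cd34 fell (-1.18 ± 0.18, adjusted p = 0.00647), and all 3 had an unadjusted p under 0.05. The count of 1 was 0 without mouse 8. The part of the monocyte markers and of these surface marker genes in the Csf1r difference was not tested.

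Flt3, the receptor for Flt3 ligand, read 13.32 and 12.94 in WT and 13.40 and 13.19 in KO LSK mice. The groups overlapped, with a change of 0.16 ± 0.30 (adjusted p = 0.864, interval -0.49 to 0.82). WT myeloid progenitors read 10.72 and 9.76 and KO ones 10.20 and 10.52, where the WT pair spanned the KO pair (0.12 ± 0.30, adjusted p = 0.975). Lymphoid-primed multipotent progenitors, which carry Flt3, have further markers on the array. The mean log2 level of 5 of these was 9.04 to 9.40 in WT and 7.62 to 7.78 in KO LSK mice, and Il7r and Rag1 fell. In myeloid progenitors it was 8.13 to 8.32 in WT and 7.48 to 7.52 in KO mice, and Il7r and Rag1 fell there too. Rag1 lay below the arrays' 25th percentile in both KO groups. The relation of these markers to Flt3 was not tested.

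Kit, the stem cell factor receptor, is part of the gate of both populations, which selects for its surface protein. The effect of that sort on its RNA was not tested. Kit RNA read 13.49 and 12.89 in WT and 12.78 and 12.79 in KO LSK mice, and the KO pair lay just below the lower WT mouse (-0.41 ± 0.21, adjusted p = 0.403). The change was -0.11 without mouse 1 and -0.70 without mouse 3. The progenitor values were 12.96 and 12.97 in WT and 13.07 and 12.76 in KO mice (-0.05 ± 0.21, adjusted p = 0.989). Over all 8 mice Kit spanned 0.72 on the log2 scale, close to Il6ra (0.63), Csf2ra (0.71), Il6st (0.74) and Csf3r (0.85). The other receptors spanned more, from 1.02 for Il3ra to 2.49 for Csf1r and 3.64 for Flt3.

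Csf3r, the G-CSF receptor of the granulocyte lineage, was lower in both KO LSK mice. It read 10.87 and 10.76 in WT against 10.03 and 10.17 in KO LSK mice. The groups did not overlap, but the difference of -0.72 ± 0.23 did not pass (adjusted p = 0.128). It passed only in the fits on single arrays that took the mouse as a random block, without and with the array number (adjusted p = 0.00159 and 0.0026). Among myeloid progenitors the WT mice read 10.15 and 10.73 and the KO mice 10.45 and 10.38, with the KO pair inside the WT pair (-0.03 ± 0.23, adjusted p = 0.995). The difference between these changes was -0.69 (interval -1.41 to 0.03).

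The IL-6 receptor consists of the binding chain Il6ra and gp130, the product of Il6st, which is shared by the IL-6 family. Il6ra read 10.01 and 10.20 in WT and 10.24 and 10.06 in KO LSK mice, which overlapped (0.04 ± 0.21, adjusted p = 0.959). The progenitor values were 10.40 and 10.36 in WT and 9.77 and 10.05 in KO mice, both below the WT mice (-0.47 ± 0.21, adjusted p = 0.444). The second Il6ra probe was dim, at 6.58 to 7.38 over the 8 mice, and gave -0.30 ± 0.17 in myeloid progenitors (adjusted p = 0.618).

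Il6st read 8.89 and 9.08 in WT and 8.82 and 8.60 in KO LSK mice, without overlap (-0.28 ± 0.21, adjusted p = 0.609). Among myeloid progenitors the WT mice read 8.62 and 8.78 and the KO mice 8.67 and 8.34, with overlap (-0.19 ± 0.21, adjusted p = 0.886). Neither chain of the IL-6 receptor passed in any of the comparisons.

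Il1r1, the signalling receptor for interleukin-1, spread widely between the WT mice of both populations. It read 8.77 and 8.28 in WT and 8.79 and 8.86 in KO LSK mice, without overlap (0.30 ± 0.28, adjusted p = 0.695). In WT myeloid progenitors it read 7.76 in mouse 5 and 8.62 in mouse 6, against 8.70 and 8.58 in KO mice (0.45 ± 0.28, adjusted p = 0.678). The LSK difference was 0.54 without mouse 1 and 0.05 without mouse 3, and the progenitor difference was 0.02 without mouse 5 and 0.88 without mouse 6.

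Between the populations, Flt3 and Csf1r separated LSK cells from myeloid progenitors in opposite directions. In WT mice 3 of the 10 receptors passed, Flt3 as higher in LSK cells and Csf1r and Csf2rb as lower, where 13.5% of all genes passed (8.08% higher and 5.46% lower). In KO mice 2 of the 10 passed, Flt3 and Csf1r, where 12.8% of all genes passed (7.26% higher and 5.49% lower). The median difference of the 10 receptors was 0.01 in WT and 0.17 in KO mice, against -0.03 and -0.01 over all genes.

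Flt3 was higher in each of the 4 LSK mice (12.94 to 13.40) than in each of the 4 progenitor mice (9.76 to 10.72). The difference was 2.89 ± 0.30 in WT mice, or 7.41-fold (adjusted p = 0.000233), and 2.93 ± 0.30 in KO mice, or 7.65-fold (adjusted p = 0.000348). It passed in all 18 alternative fits for each genotype, at 2.41 to 3.37 in WT and 2.77 to 3.10 in KO mice. The stretch upstream of Flt3, the gene with the widest span between populations, is shown for comparison with the alpha chains: 250 bases before the RefSeq start, GRCm38.p6 chr5:147400490-147400739 (minus strand), 5′ to 3′, all in lower case because none of the 5 motifs above matched.
Flt3: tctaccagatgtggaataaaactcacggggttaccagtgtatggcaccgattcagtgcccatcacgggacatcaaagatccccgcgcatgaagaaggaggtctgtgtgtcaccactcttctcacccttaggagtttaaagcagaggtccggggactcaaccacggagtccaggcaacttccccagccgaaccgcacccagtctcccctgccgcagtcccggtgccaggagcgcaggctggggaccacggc
The C+G content of this stretch was 59.2%.

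Csf1r was higher in each of the progenitor mice (10.15 to 11.45) than in each of the LSK mice (8.97 to 9.89). In WT mice LSK cells were lower by a log2 difference of -1.73 ± 0.25, or 3.32-fold (adjusted p = 0.00134), and in KO mice by -1.24 ± 0.25, or 2.36-fold (adjusted p = 0.00912). The call in WT mice was lost without mice 1 and 5 together (-1.31, adjusted p = 0.0725) and the call in KO mice without mouse 7 (-1.09, adjusted p = 0.086). In WT mice 5 of 7 monocyte and macrophage markers and 5 of 7 granulocyte-monocyte progenitor markers were lower in LSK cells too. The monocyte count was 3 without mouse 1 or mouse 5 and 2 without both, and the part of these markers in the Csf1r difference was not tested.

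Csf2rb was lower in WT LSK cells than in WT myeloid progenitors by its brighter probe (-0.73 ± 0.20, adjusted p = 0.0389), while the second probe gave 0.11 ± 0.22 (adjusted p = 0.796). With both probes averaged the difference was -0.31 (adjusted p = 0.362), and the call was lost in 9 of 18 alternative fits, among them without mouse 1 (-0.66, 0.23), 3 (-0.80, 0.105), 5 (-0.66, 0.137), 6 (-0.79, 0.074), 7 (-0.73, 0.0749) or 8 (-0.73, 0.0748), the adjusted p standing second. Without mice 1 and 5 together it was -0.59 (adjusted p = 0.395). In KO mice the populations differed by -0.16 ± 0.20 (adjusted p = 0.697). The remaining receptors, Kit, Csf2ra, Csf3r, Il3ra, Il6ra, Il6st and Il1r1, did not pass between populations in the fit on mouse means, with differences from -0.48 to 0.38 in WT mice and, with Csf2rb, from -0.32 to 0.55 in KO mice.

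**Figure D3:**
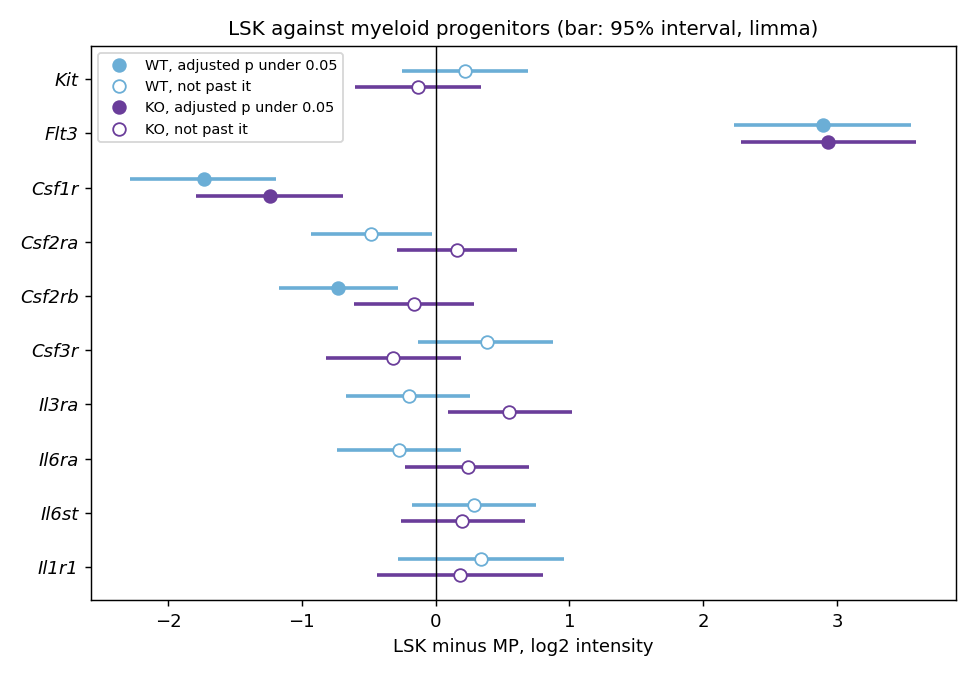
Difference between LSK cells and myeloid progenitors (MP) for each receptor gene in WT and in KO mice, as a log2 difference of group means with its 95% interval from limma (2 mice per group). Filled points pass the adjusted threshold of 0.05: Flt3 at 2.89 and 2.93, Csf1r at -1.73 and -1.24, and Csf2rb in WT mice at -0.73.

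The pathways around these receptors were read from 5 lists. From WT to KO, 4.64% of all genes passed in LSK cells and 2.64% in myeloid progenitors, and the list counts are given beside these shares. Of 17 measured ligand genes, 0 passed with limma from WT to KO in either population, with median changes of -0.01 in LSK cells and 0.04 in myeloid progenitors, against 0.02 and 0.0014 over all genes. At an unadjusted p under 0.05 there were 0 and 3, and leaving out 1 mouse gave up to 2 in LSK cells (without mouse 3) and up to 1 in progenitors (without mouse 7). Kitl, which encodes stem cell factor, read 6.43 to 6.74 over the 8 mice and did not pass (LSK adjusted p = 0.657, progenitors 0.967). Csf1, a ligand of Csf1r, gave -0.28 ± 0.20 in LSK cells and -0.39 ± 0.20 in myeloid progenitors (adjusted p = 0.576 and 0.555). Averaged over both populations 1 of the 17 passed, Il1a, which encodes interleukin-1 alpha, a ligand of Il1r1 (0.36 ± 0.08, adjusted p = 0.0219). Its probe was dim, at 6.32 to 6.63 in LSK cells and 6.32 to 6.96 in progenitors.

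Among 35 measured receptors outside the 10, 3 rose and 2 fell in KO LSK cells and 1 rose and 1 fell in KO myeloid progenitors (medians 0.02 and -0.01). Over all genes 4.64% passed in LSK cells and 2.64% in progenitors, with medians of 0.02 and 0.0014. The LSK count of 5 was 3 without mouse 3, 5, 6 or 8, without mice 1 and 5 together, with the compared groups alone and without trend and robust moderation, and the progenitor count of 2 was 1 without mouse 5, without mice 1 and 5 together and with all probes averaged, and 0 without mouse 8 and without trend and robust moderation. Tek, the angiopoietin receptor of stem cells and endothelium, read 8.50 and 8.60 in WT and 6.96 and 6.67 in KO LSK mice, a fall of 3.32-fold (-1.73 ± 0.19, adjusted p = 0.000807). Il7r, the IL-7 receptor alpha chain of lymphoid progenitors, read 9.16 and 9.33 against 7.35 and 6.93 in LSK cells (-2.11 ± 0.24, adjusted p = 0.00112). Its progenitor values were 8.36 and 7.64 in WT and 6.45 and 6.33 in KO mice (-1.61 ± 0.24, adjusted p = 0.00599), a call lost without mouse 8 (-1.55, adjusted p = 0.0534) and without trend and robust moderation (-1.61, adjusted p = 0.0582). B cell markers moved with Il7r. Of 7 measured, 4 fell in each population, the pre-B receptor genes Vpreb1 and Igll1, the B lineage factor Ebf1 and Ms4a1, which encodes CD20. The mean log2 level of the 7 was 9.33 to 9.39 in WT and 7.46 to 7.70 in KO LSK mice, and 8.92 to 9.22 in WT and 7.64 to 7.73 in KO progenitors. Ms4a1 lay below the arrays' 25th percentile in both KO groups. Their part in the Il7r changes was not tested.

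Il18r1, the binding chain of the interleukin-18 receptor, rose in LSK cells from 7.63 and 7.51 in WT to 8.92 and 8.74 in KO mice (1.26 ± 0.17, adjusted p = 0.0026). The calls of Tek, Il7r and Il18r1 in LSK cells held in all 18 alternative fits. The other receptors that passed, named after their values were seen, were Il10ra (1.77 ± 0.38, adjusted p = 0.0402) and Lifr (0.50 ± 0.12, adjusted p = 0.0422) in LSK cells and the growth hormone receptor Ghr (1.27 ± 0.26, adjusted p = 0.0264) in myeloid progenitors. Il10ra read 10.63 and 9.32 in the KO LSK mice, a wide spread, against 8.34 and 8.06 in WT.

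Downstream of the receptors, 1 of 21 measured JAK, STAT and adaptor genes rose in KO LSK cells, and 1 rose and 1 fell in KO myeloid progenitors (medians 0.06 and 0.09). With 4.64% and 2.64% of all genes past the threshold (medians 0.02 and 0.0014), the LSK count lay close to the background. The LSK count was 2 without mouse 4, 5 or 6 and 0 without mice 1 and 5, and the progenitor count of 2 was 0 without mouse 5 and without mice 1 and 5, and 1 without mouse 6, 7 or 8 and with all probes averaged. Gab2, an adaptor that couples these receptors to PI3 kinase and SHP2, was the gene that rose in both. It read 7.75 and 7.53 in WT against 8.87 and 9.06 in KO LSK mice (1.32 ± 0.22, adjusted p = 0.00748). The progenitor values were 7.74 and 7.63 in WT and 8.48 and 9.02 in KO mice (1.07 ± 0.22, adjusted p = 0.0303). The groups did not overlap in either population. The LSK change was 0.69 with all probes averaged, still past the threshold (adjusted p = 0.0329). Its call was lost without mice 1 and 5 together (1.43, adjusted p = 0.0616), and the progenitor call in 6 of 18 alternative fits, among them with all probes averaged (0.48, adjusted p = 0.178) and without mouse 5 (1.13, 0.114), 6 (1.01, 0.168) or 8 (0.80, 0.319).

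Stat4, a transcription factor downstream of interleukin-12, fell in myeloid progenitors from 9.93 and 9.79 in WT to 8.42 and 8.72 in KO mice (-1.29 ± 0.21, adjusted p = 0.00956). That call was lost in the fits that left out mouse 5 (-1.22, 0.0587), mouse 7 (-1.14, 0.0935) or mice 1 and 5 (-1.22, 0.0945). In LSK cells it read 11.12 and 10.90 in WT against 10.38 and 10.22 in KO mice (-0.71 ± 0.21, adjusted p = 0.101). Stat6, downstream of interleukin-4, passed in the average over both populations (0.66 ± 0.15, adjusted p = 0.0207).

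Of 20 measured feedback inhibitors, 1 rose in KO LSK cells and 3 in KO myeloid progenitors, and 0 fell in either (medians 0.17 and 0.20). The shares of all genes that passed were 4.64% and 2.64%, with medians of 0.02 and 0.0014. The 3 were Socs2, Socs3 and Cish, SOCS family members that STATs induce and that damp JAK signalling. Socs2 read 10.55 and 10.75 in WT against 12.51 and 11.91 in KO LSK mice, and 8.50 and 9.0 against 10.48 and 11.22 in myeloid progenitors. It thus rose 2.94-fold in LSK cells (adjusted p = 0.0166) and 4.29-fold in myeloid progenitors (adjusted p = 0.00476). In WT mice 6 of the 20 inhibitors, these 3 among them, were higher in LSK cells than in myeloid progenitors, and 0 were lower. Of 8 long-term stem cell markers 0 passed in KO progenitors, with a median change of 0.48 and 5 at an unadjusted p under 0.05. The part of the cell make-up of the gate in the rise of the inhibitors was not tested.

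Socs3 read 7.51 and 7.42 in WT against 9.80 and 9.49 in KO myeloid progenitors, a rise of 4.52-fold (2.18 ± 0.32, adjusted p = 0.00507). In LSK cells WT mouse 1 (11.19) was level with KO mouse 4 (11.19), WT mouse 3 was at 10.16 and KO mouse 2 at 11.60, and the change did not pass (0.72 ± 0.32, adjusted p = 0.298). Cish read 9.38 and 9.63 against 11.04 and 11.94 in myeloid progenitors (1.99 ± 0.32, adjusted p = 0.00979). In LSK cells it read 12.42 and 11.69 against 13.42 and 13.29 (1.30 ± 0.32), just outside the threshold (adjusted p = 0.0507).

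These calls were lost in part of the alternatives. With 1 mouse left out the LSK count of 1 ranged from 0 (without mouse 2) to 2 (without mouse 4, 7 or 8), and the progenitor count of 3 from 1 (without mouse 5 or 6) to 4 (without mouse 7). Without mice 1 and 5 the counts were 0 and 1, and on single arrays with the mouse as a block 6 and 5. The LSK count was also 2 with the compared groups alone and with dim probes left out. Both counts were 0 without trend and robust moderation, where Socs2 gave adjusted p = 0.0789 in LSK cells and 0.0529 in progenitors, and Socs3 (0.0538) and Cish (0.0774) did not pass either. In LSK cells Socs2 lost its call without mouse 1 (1.45, adjusted p = 0.103) or mouse 2 (1.25, 0.0999) and without mice 1 and 5 together (1.45, 0.152). In myeloid progenitors Socs2 lost it without mouse 5 (1.85, 0.0502) and without mice 1 and 5 together (1.85, 0.0845). Socs3 lost its progenitor call without mouse 6 (2.13, 0.0566), and Cish without mouse 5 (1.86, 0.0965), 6 (2.11, 0.0668) or 8 (1.53, 0.0643) and without mice 1 and 5 together (1.86, 0.071).

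Of 23 measured transcription factors that act on receptor genes, 2 rose and 2 fell in KO LSK cells and 0 rose and 1 fell in KO myeloid progenitors (medians -0.16 and 0.03). Among all genes 4.64% and 2.64% passed (medians 0.02 and 0.0014). Irf4, which acts in lymphoid and dendritic cell development, read 7.56 and 8.09 in WT against 6.45 and 6.23 in KO LSK mice (-1.48 ± 0.18, adjusted p = 0.00182). Mitf, a factor of mast cells and melanocytes that acts on Kit, read 8.63 and 8.75 against 7.61 and 7.66 in LSK cells (-1.05 ± 0.22, adjusted p = 0.0249) and 9.41 and 8.78 against 7.72 and 7.68 in myeloid progenitors (-1.40 ± 0.22, adjusted p = 0.00805). Cebpb, a factor of emergency granulopoiesis, read 9.66 and 9.44 against 10.85 and 10.32 in LSK cells (1.04 ± 0.23, adjusted p = 0.034).

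The LSK count of 4 was 1 without mouse 1, 2 or 3 and without mice 1 and 5 together, and 2 without mouse 4, 7 or 8, with the compared groups alone and without trend and robust moderation, and the progenitor count of 1 was 0 without mouse 8 and 2 without mouse 1, 2, 3 or 4. The other factor that rose in LSK cells was Cebpe, given above among the granulocyte-monocyte markers (0.91 ± 0.21, adjusted p = 0.0349). The Irf4 call held in all 17 alternative fits that kept its probe. The LSK call of Mitf was lost in 6 of 18, among them each that left out an LSK mouse (-1.12 to -0.99, with adjusted p reaching 0.106) and that without mice 1 and 5 together (-1.12, 0.0538), and its progenitor call without mouse 8 (-1.37, 0.0736) and without mice 1 and 5 together (-1.08, 0.0693). The call of Cebpb was lost in 8 of 18, among them without mouse 2 (0.77, adjusted p = 0.164) and without mice 1 and 5 together (1.15, 0.145). Spi1, which encodes PU.1, the factor that binds the core counted in the promoter stretches, did not pass with genotype (-0.16 ± 0.24 in LSK cells and 0.22 ± 0.24 in myeloid progenitors, adjusted p = 0.831 and 0.887).

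**Figure D4:**
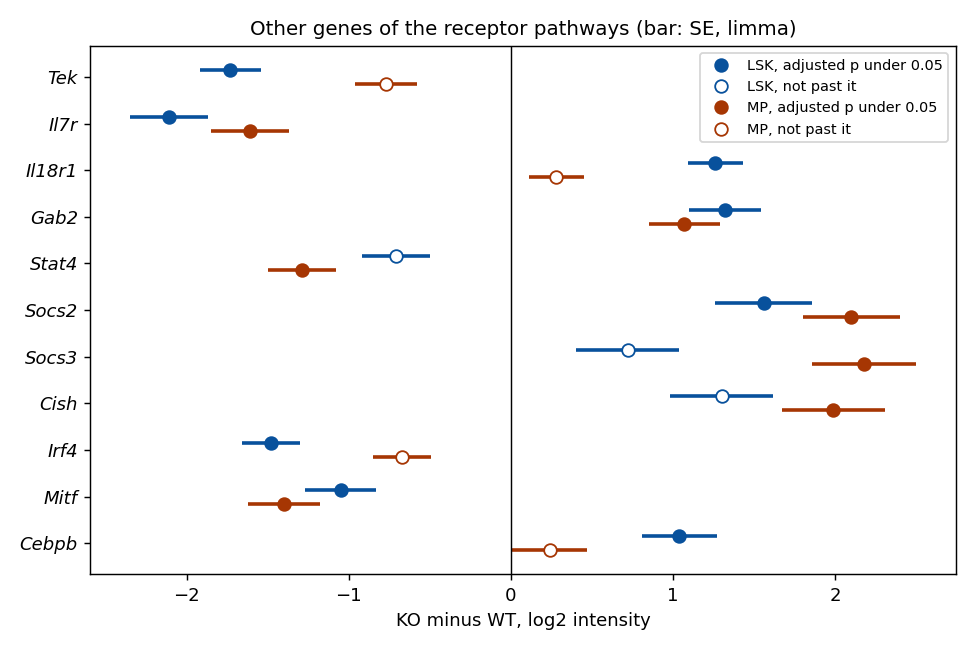
Change from WT to KO of the named pathway genes outside the 10 receptors in LSK cells and in myeloid progenitors (MP), as a log2 difference of group means with bars of 1 SE from limma (2 mice per group). Filled points pass the adjusted threshold of 0.05. Tek and Il7r lie lowest in LSK cells (-1.73 and -2.11), and Socs2, Socs3 and Cish lie highest in myeloid progenitors (2.10, 2.18 and 1.99).

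For each receptor whose mouse means spanned 1 or more on the log2 scale, the 3 genes with the highest Pearson correlation over the 8 mice were taken from 10339 genes. The mice share their groups, so these values describe likeness of pattern and carry no test. Flt3 was most like Stxbp4 (r = 0.995), Hdgfl3 (0.994) and Crebrf (0.993). Csf1r was most like Hexa (0.985), Irf8 (0.98) and Cnnm2 (0.977). Irf8, a transcription factor of monocytes and dendritic cells, read 9.73 and 10.25 in WT and 9.31 and 8.89 in KO LSK mice, and 11.45 and 11.53 in WT and 10.52 and 10.42 in KO progenitors. Its change did not pass in LSK cells (-0.89 ± 0.24, adjusted p = 0.0698) or in progenitors (-1.02 ± 0.24, adjusted p = 0.0554).

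Csf2rb was most like Fmc1 (r = 0.993), Itpka (0.982) and Dnajc17 (0.974). Itpka, an inositol trisphosphate kinase, read 7.09 and 7.08 in WT and 8.36 and 8.26 in KO LSK mice. Il3ra was most like Cpt1c (0.961), Manbal (0.952) and Pskh1 (0.951), and Il1r1 was most like Phf13 (0.971), Spint2 (0.956) and Mapk13 (0.926). Kit, Csf2ra, Csf3r, Il6ra and Il6st spanned less than 1, between 0.63 and 0.85, and no gene is named for them.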

How the data were processed

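Per the labels' protocols, total RNA was column-extracted for 24 arrays, transcribed in vitro with an amino-allyl nucleotide and labelled with Cy5. The authors deposited normalized log2 intensities, and limma, with no version, is named in the submitters' processing notes. That they are log2 values on a common distribution was read from the values, whose sorted columns differ by at most 0.0451 between arrays. The sources used here give no scanner, background correction or filter. Arrays have no read depth, and the number of mice limits the precision.

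Probes were named through the platform annotation, updated with RefSeq names (18213 by symbol, 2126 by synonym, 36 kept as given, 2064 without symbol). The 3 arrays of a mouse, technical repeats, were averaged. A limma fit of the 8 means (version 3.58.1, R 4.3.3, lmFit and eBayes with trend and robust options) held all 4 groups, with 4 residual degrees of freedom. P-values are two-sided and adjusted over 22439 probes. The fit was run on simulated data with planted changes. Recovery was required only for the largest of these, which exceeded every genotype change of the receptors. The receptor genes and gene lists were chosen with earlier results of these data known, and no list was tested as a set. From each pathway list up to 3 genes were named, those with the smallest adjusted p among genes past the threshold in LSK cells or in myeloid progenitors. Il1a and Stat6 passed only in the average, and other pathway genes (Kitl, Csf1, Spi1 and those so marked) were named after their values were seen. Alternatives changed the replicate unit, blocks, groups in the fit, moderation, probe filter, probe per gene, scaling and mice.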

Additional observations from a re-analysis of the deposited data

How the results depend on the processing

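Of the receptor counts, that for KO against WT in LSK cells (2 of 10) was 4 with all arrays and the mouse as a random block (Csf1r and Csf3r added), 4 with the array number as a further replicate block, 1 with the compared groups alone, 1 without trend and robust moderation, 0 without mice 1 and 5, and 0 to 1 with 1 mouse left out. In myeloid progenitors the count of 0 was 1, Csf1r, with all arrays, with the replicate block, with the compared groups alone, and with probes above the 25th or the 50th percentile. The average count of 2 was 4 with all arrays, 4 with the replicate block, 1 without mice 1 and 5, and 1 to 2 with 1 mouse left out. Between populations, the WT count of 3 was 1 without mice 1 and 5, and the KO count of 2 was 1 to 2 with 1 mouse left out. The count of 0 for the difference of changes stayed 0 in all its alternatives. With all arrays and the mouse as a random block the WT count was 4, Csf2ra added (-0.48, limma adjusted p = 0.0444). It was 2 with the compared groups alone and with all probes averaged. The KO count was 3 with all arrays and with the replicate block, Il3ra added (0.55, limma adjusted p = 0.0183 and 0.025). Where a mouse was left out, the lone mouse of its group was assumed to vary like the other groups.

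The array numbers did not pair arrays of different mice: deviations of same-numbered arrays correlated with a median r of 0.01 (-0.25 to 0.28, 84 pairs), those of different numbers with 0.0049. Fits on all arrays use the spread between technical arrays in part, with a correlation of 0.442 within a mouse. The signs that reversed were of receptors that did not pass. With 1 mouse left out the LSK changes ranged from -0.06 to 0.14 for Il6ra, -0.03 to 0.36 for Flt3 and -0.02 to 0.31 for Csf2ra, and the progenitor changes from -0.05 to 0.26 for Il3ra, -0.36 to 0.60 for Flt3, -0.32 to 0.26 for Csf3r and -0.21 to 0.10 for Kit. Without mice 1 and 5 Il6ra was at -0.06 in LSK cells and Il3ra at -0.03 in progenitors.

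Over all genes, the 824 calls in LSK cells became 2671 with all arrays, 2570 with the replicate block, 479 with the compared groups alone, 549 without trend and robust moderation, 331 without mice 1 and 5 and 430 to 968 with 1 mouse left out. The 469 in myeloid progenitors became 1629, 1549, 541, 288, 243 and 196 to 546 in that order. The average went from 1410 to 3196 with all arrays, 3120 with the replicate block, 735 without mice 1 and 5 and 793 without mouse 8. The difference went from 11 to 454 with all arrays, 402 with the replicate block, 0 without trend and robust moderation, 31 above the 50th percentile, 49 without mice 1 and 5 and 10 to 117 with 1 mouse left out. Between populations, 2403 in WT became 4675, 4543 and 617 (without mice 1 and 5) and 1077 to 2749 with 1 mouse left out, and 2262 in KO became 4628, 4514 and 936 to 2687. The cause of these shifts was not tested. Centring the arrays or repeating the quantile normalization changed no receptor call.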

Other observations

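Receptors outside the 10 also differed between the populations. In WT mice 8 of 35 measured ones were higher in LSK cells and 1 was lower (median difference 0.22, against -0.03 over all genes), a total of 9 that was 2 without mice 1 and 5. Il1r2, the decoy receptor for interleukin-1, read 11.02 and 10.74 in WT LSK mice and 9.15 and 8.88 in WT myeloid progenitors (1.86 ± 0.23, limma adjusted p = 0.000548), while the signalling receptor Il1r1 did not pass (0.34 ± 0.28, adjusted p = 0.504). Ifngr1, the ligand-binding chain of the interferon-gamma receptor, was the gene that was lower in LSK cells, at 10.70 and 10.91 against 12.07 and 12.07 (-1.26 ± 0.25, adjusted p = 0.00756).

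In KO mice 8 of the 35 were higher in LSK cells and 2 were lower, Ifngr1 and Il5ra, the alpha chain through which interleukin-5 uses Csf2rb. That total of 10 was 5 without mouse 7. Il5ra read 6.74 and 6.48 in KO LSK mice and 8.15 and 7.43 in KO myeloid progenitors (-1.18 ± 0.23, adjusted p = 0.00849). In WT mice it read 7.14 and 7.36 against 7.47 and 7.18, with overlap (-0.07 ± 0.23, adjusted p = 0.89). Whether the population difference of Il5ra differed between genotypes is the same contrast as the difference of its genotype changes, in which 0 of the 35 receptors passed with limma (6 at an unadjusted p under 0.05) and Il5ra gave -1.11 ± 0.32 (adjusted p = 0.423). The genes in these paragraphs were chosen after their values were seen.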
